A study of Sus scrofa with 12 samples.

Results

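The SOX transcription factors listed for the pig heart comprised SOX4 and SOX11 of group C, SOX5 and SOX6 of group D, SOX8, SOX9 and SOX10 of group E, and SOX7, SOX17 and SOX18 of group F. Of these 10 genes, 8 had an identifier among the 35682 genes of the count tables, and SOX7 and SOX17, which the symbol table paired with no identifier, were not analysed here. The family was chosen by the measured fall of SOX11 in the border zone of these same libraries, so the differences of its members between the zones are given as descriptions, without p-values. Gene expression was measured by RNA sequencing of 12 libraries, a border zone library (next to the infarct) and a remote zone library (posterior wall) from each of 6 Yorkshire pigs, all labelled as mid. Each pig had its left anterior descending artery occluded by a balloon for 60 min and was then reperfused. From day 9 after this injury all 6 received tacrolimus (0.75 mg/kg per day), mycophenolate mofetil (500 mg per day) and prednisolone (20 mg per day). On day 14 the chest was opened and either vascular organoids of endothelial progenitor cells and smooth muscle cells, made without a scaffold and held in place with fibrin sealant, or the sealant alone was put on the heart. The labels give neither the treatment of each animal nor its age, so both zones mix treated and control animals and only the zones were compared. All animals carried the infarct, and a remote zone library is not tissue of an uninjured heart.

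SOX proteins bind DNA through an HMG box, a domain that fits into the minor groove and bends the helix. Group C factors are known for embryonic progenitors of the heart outflow tract and of neurons, group D factors for cartilage and for the choice between slow and fast muscle fibres, group E factors for cartilage, valves and the neural crest with its glial cells, and group F factors for blood and lymphatic endothelium. Members of a group can act on the same sites, and SOX9 works together with SOX5 and SOX6 on cartilage genes.

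The start of the HMG box is shown because it is where the groups can be read side by side. In the genome build Sscrofa11.1, with RefSeq gene models, the box start lay in coding exons at chr3:129800021-129800059 (minus strand) for SOX11, chr7:16891487-16891525 (plus) for SOX4, chr5:50151539-50151577 (plus) for SOX5, chr2:43050426-43050464 (plus) for SOX6, chr3:40829565-40829603 (minus) for SOX8, chr12:8646968-8647006 (minus) for SOX9, chr5:9892639-9892677 (plus) for SOX10 and chr17:62871353-62871391 (minus) for SOX18. Each line holds 39 bases, 5′ to 3′ on the coding strand, and capitals mark the bases that differ from SOX11.
SOX11: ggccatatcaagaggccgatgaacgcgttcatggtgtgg
SOX4: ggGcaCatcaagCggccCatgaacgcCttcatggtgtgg
SOX5: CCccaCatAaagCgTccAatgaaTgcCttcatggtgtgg
SOX6: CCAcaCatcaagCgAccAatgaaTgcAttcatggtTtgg
SOX8: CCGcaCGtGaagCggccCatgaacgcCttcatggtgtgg
SOX9: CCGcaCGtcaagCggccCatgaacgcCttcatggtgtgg
SOX10: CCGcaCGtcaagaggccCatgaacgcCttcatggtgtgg
SOX18: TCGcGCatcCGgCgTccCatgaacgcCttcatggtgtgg
SOX4 differed from SOX11 at 5 of the 39 bases, the group E members at 7 to 9, the group D members at 9 and 10, and SOX18 at 11. Over the whole box of 237 bases, or 79 residues, SOX4 was identical to SOX11 at 86.5% of bases and 94.9% of residues, while the other measured members were identical at 57.8% to 72.2% of bases and 58.2% to 59.5% of residues.

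Of the measured members, SOX4 was the nearest to SOX11 in the HMG box. Their boxes differed at 32 bases, the longest run without a difference was 27 bases, shorter than the reads of 150 bp, and both genes consist of a single exon. No other RefSeq gene overlapped an exon of the 8 measured members.

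Totals of counts on genes ran from 15130210 to 30526110 in the border zone and from 20091415 to 31618680 in the remote zone. The border zone library of animal 3622 had the lowest total, 15130210, yet held a count for 28024 genes. The other border zone libraries held a count for 17563 to 20148 genes, and the remote zone libraries for 16932 to 18076. The border zone library of animal 1022 stood apart in cell type markers. Its 9 measured cardiomyocyte markers (12 were listed) summed to 10445 CPM (counts of a gene per 1000000 scaled counts of its library), the lowest of the border zone range of 10445 to 55954, against 48864 to 81133 in the remote zone. Its 11 measured markers of fibroblasts and matrix (12 listed) summed to 67855, the highest of a border zone range of 3196 to 67855, against 1118 to 2745 in the remote zone. The same library had the highest macrophage sum (8 markers, 1503 CPM, against 121 to 259 in the remote zone) and the highest smooth muscle and pericyte sum (8 markers, 2892 CPM, against 442 to 734). Both of these sums were higher in the border zone in 5 of 6 animals. The border zone median was the higher for 8 of 8 macrophage markers, but for only 5 of 8 smooth muscle and pericyte markers. The pericyte markers RGS5, KCNJ8 and ABCC9 had lower border zone medians. None of the markers of these 4 lists was at 0 in a library. Border tissue had the higher cardiomyocyte sum in 0 of 6 animals and the higher fibroblast sum in 6 of 6. Fold changes of members and medians of gene lists are therefore also given without animal 1022. In bulk tissue, fewer cells of a type and less RNA per cell cannot be told apart.

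SOX11 (ENSSSCG00000008649, chr3:129797438-129800568, minus strand), the group C factor of embryonic progenitors, was lower in border than in remote tissue in each of the 6 animals. In the order of animals 1022, 1322, 1323, 1623, 1922 and 3622, the border zone held 3.40, 14.2, 9.33, 14.2, 10.2 and 10.7 CPM and the remote zone 24.9, 24.6, 18.9, 22.5, 19.5 and 29.2 CPM, scaled by TMM normalization. The highest border zone library lay under the lowest remote zone library, and the border zone library of animal 1022 lay far under the other 5. The counts behind these values were 103 to 415 per border zone library and 376 to 628 per remote zone library. The log2 fold change of border over remote zone, from edgeR's quasi-likelihood fit over 13844 genes, was -1.17 ± 0.27 (SE), and -0.97 without animal 1022. Under a replicate block on the animal the value was -1.26 ± 0.28 (SE), and SOX11 no longer passed the threshold of an adjusted p under 0.05.

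SOX11 was the 1 member of 7 tested that passed this threshold, while 287 of all 13844 genes, or 2.07%, passed it, and only 0.0144% passed it as lower in the border zone. With the animal as block, 0 of the 7 members and 0.296% of all genes passed. By strength of evidence SOX11 stood at place 2 among the 6459 genes with a lower border zone value. Since this contrast chose the family, nothing is read from these counts. Its call also ended without animal 1323, 1623, 1922 or 3622, without the border zone library of animal 3622 alone, and with a minimum of 10 counts in every library, and its log2 fold change stayed between -1.29 and -0.89 in the 14 alternative settings. SOX11 was the 1 tested member whose zones did not overlap, which 0.701% of all genes showed in the same direction and 1.99% in the other.

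SOX4 (ENSSSCG00000056309, chr7:16886834-16895488, plus strand), the other group C factor, showed no such separation. Its border zone libraries held 10.5 to 21.2 CPM with a median of 15.5, and its remote zone libraries 9.54 to 19.7 CPM with a median of 12.5. The zones overlapped over most of their range, and the border zone was higher in 4 of 6 animals. This gave a log2 fold change of 0.24 ± 0.20 (SE), and 0.11 without animal 1022.

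**Figure D1:**
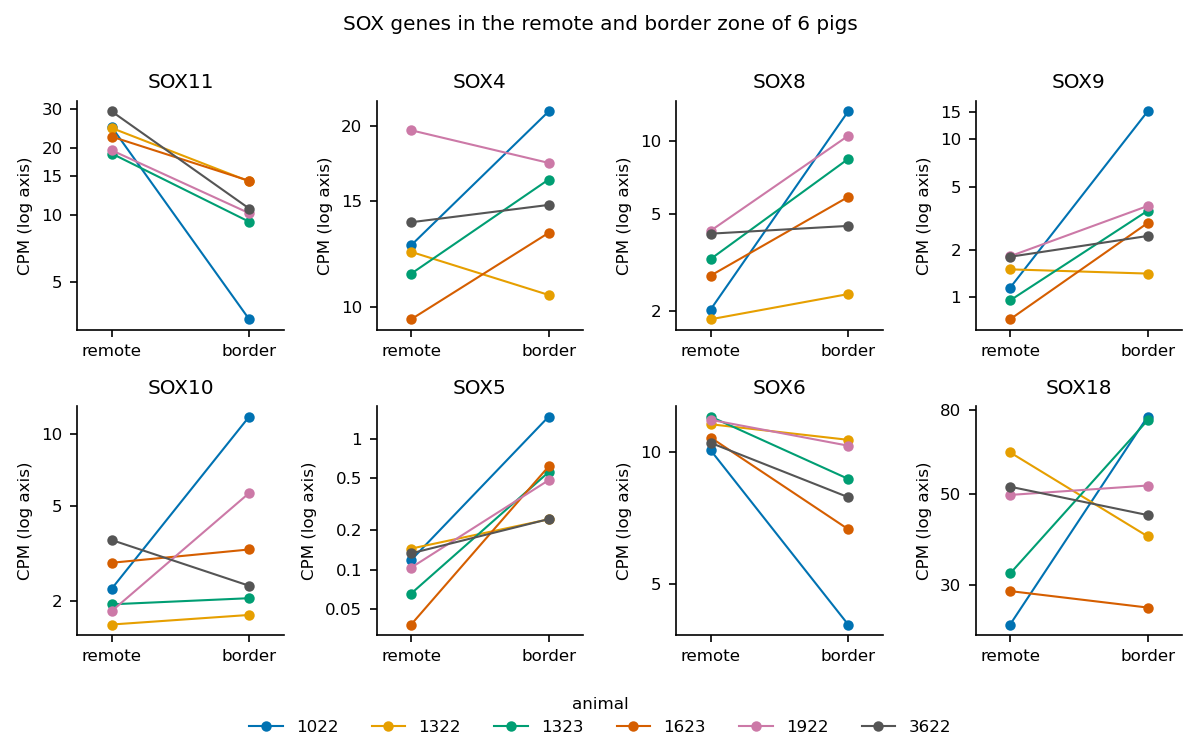
Level of 8 SOX genes in CPM (log axis, each panel with its own scale) in the remote and border zone, with 1 line per animal (n = 6). SOX11 and SOX6 lines all go down from remote to border, SOX5 and SOX8 lines all go up, and the animal 1022 line is the steepest in every panel but SOX5.

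The plot by library sets the 8 genes side by side. A lower border zone in all 6 animals was found for SOX11 and SOX6 among the 7 tested members, against 11.1% of all genes tested, and a higher one for SOX8, against 11.7%. SOX5, which was too low for the filter, was also higher in all 6, on only 5 and 4 border zone counts in animals 1322 and 3622.

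A list of 10 genes known as group C targets or as markers of immature neurons had all its identifiers, and 6 of them were tested. None passed the threshold, 5 had a log2 fold change above 0, and the median was 0.32 (0.22 without animal 1022), against 0.04 for all genes tested. TUBB2B, a tubulin of growing neurons, held 66.1 to 179 CPM in the border zone and 52.2 to 118 CPM in the remote zone (log2 fold change 0.36 ± 0.26, SE). TEAD2, a transcription factor of the Hippo pathway and a known target of SOX4 and SOX11, had lower border than remote values. Its border zone libraries held 22.1 to 39.7 CPM and its remote zone libraries 40.0 to 48.5 CPM, lower in 6 of 6 animals and without overlap. Its log2 fold change was -0.51 ± 0.15 (SE), with an adjusted p of 0.0794 in the edgeR quasi-likelihood fit (Benjamini-Hochberg over all genes). TEAD2 passed in 1 of 14 alternative settings, DESeq2 (adjusted p of 0.0113), and was at -0.23 with library totals (adjusted p of 0.346 in edgeR).

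SOX6 (ENSSSCG00000034191, chr2:42447391-43068824, plus strand), a group D factor that lacks an activation domain of its own and is known to repress slow fibre genes in skeletal muscle, had less RNA in border than in remote tissue in 6 of 6 animals. Border zone libraries ranged from 4.03 to 10.7 CPM with a median of 8.28, and remote zone libraries from 10.1 to 12.1 CPM with a median of 11.2. The zones overlapped at the edge, and the remote zone libraries were the tightest of any member. Fitted over all genes, the log2 fold change was -0.47 ± 0.21 (SE), and -0.36 without animal 1022.

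SOX5 (ENSSSCG00000000567, chr5:49159950-50166463, plus strand), the other group D factor, was the lowest member. In the same order of animals the border zone held 45, 5, 19, 18, 10 and 4 counts and the remote zone 3, 3, 2, 1, 2 and 2 counts. These are 0.243 to 1.49 CPM in the border zone and 0.038 to 0.145 CPM in the remote zone, without overlap and with the border zone higher in 6 of 6 animals. No remote zone library exceeded 3 counts, the number still allowed where 0 is seen. In animals 1322 and 3622 the direction rested on 5 against 3 and 4 against 2 counts. Neither the direction in these animals nor the lack of overlap is therefore read as a result. SOX5 did not pass the filter on low counts and was not tested in the edgeR fit. The 101 border zone counts and 13 remote zone counts gave a ratio of 7.04 on the scale of library size, with a 95% exact interval of 3.94 to 13.7 that covers counting error only. Without animal 1022 the ratio was 5.17, from 56 and 10 counts, with an interval of 2.62 to 11.4. DESeq2, which kept SOX5, gave a log2 fold change of 2.60 ± 0.70 (SE). Animal 1022 held 40.9% of the border zone CPM of SOX5.

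Of the 7 measured genes of slow muscle known to be regulated by SOX5 or SOX6, none passed the threshold and 2 had a log2 fold change above 0, with a median of -0.55 (-0.31 without animal 1022). These genes are also expressed by ventricular cardiomyocytes, and some of them stand in the cardiomyocyte list. MYL2, the ventricular regulatory light chain of myosin, held 2114 to 11932 CPM in the border zone and 8822 to 19659 CPM in the remote zone (log2 fold change -0.61 ± 0.38, SE). MYL3, the matching essential light chain, held 992 to 7728 CPM and 6538 to 14333 CPM in the same order (-0.97 ± 0.40, SE). The 2 genes above 0, named after their values were seen, were the slow skeletal troponins TNNT1 and TNNI1. TNNT1 held 130 to 503 CPM in the border zone and 96.4 to 316 CPM in the remote zone, with the border zone higher in 6 of 6 animals (0.89 ± 0.38, SE). TNNI1 had medians of 14.9 and 6.24 CPM in the same order, the zones overlapping, with the border zone higher in 4 of 6 (1.07 ± 0.61, SE).

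SOX8 (ENSSSCG00000037970, chr3:40825151-40830085, minus strand), a group E factor of the neural crest and the gonad, had more RNA in border than in remote tissue in 6 of 6 animals. Border zone libraries ranged from 2.34 to 13.2 CPM with a median of 7.14, and remote zone libraries from 1.84 to 4.26 CPM with a median of 3.02. Animal 1322 was low in both zones, and its border zone value lay within the remote zone range. On the log2 scale the fold change was 1.30 ± 0.38 (SE), and 0.96 without animal 1022. SOX8 passed the threshold in 3 of 14 alternative settings, which were DESeq2, library totals and leaving out animal 1322, where 10.3%, 11.2% and 3.72% of all genes passed.

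SOX9 (ENSSSCG00000017251, chr12:8642154-8647315, minus strand), the group E factor that drives cartilage matrix genes, had the widest border zone spread. Its border zone libraries held 15.1, 1.41, 3.53, 2.95, 3.79 and 2.45 CPM in the order of animals above, and its remote zone libraries 1.15, 1.50, 0.955, 0.725, 1.82 and 1.81 CPM. The border zone was higher in 5 of 6 animals, animal 1322 being the exception, and animal 1022 alone held 51.6% of the border zone CPM. Its log2 fold change was 1.89 ± 0.52 (SE), and 1.07 without animal 1022. SOX9 passed the threshold in 2 of 14 alternative settings, DESeq2 and library totals.

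SOX10 (ENSSSCG00000039315, chr5:9890439-9901746, plus strand), the group E factor of Schwann cells and melanocytes, held 1.75 to 11.9 CPM in the border zone with a median of 2.81, and 1.60 to 3.61 CPM in the remote zone with a median of 2.10. Animal 1022 supplied the highest value and 44.0% of the border zone CPM. The border zone was higher in 5 of 6 animals. The log2 fold change of 0.94 ± 0.45 (SE) became 0.35 without animal 1022.

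**Figure D2:**
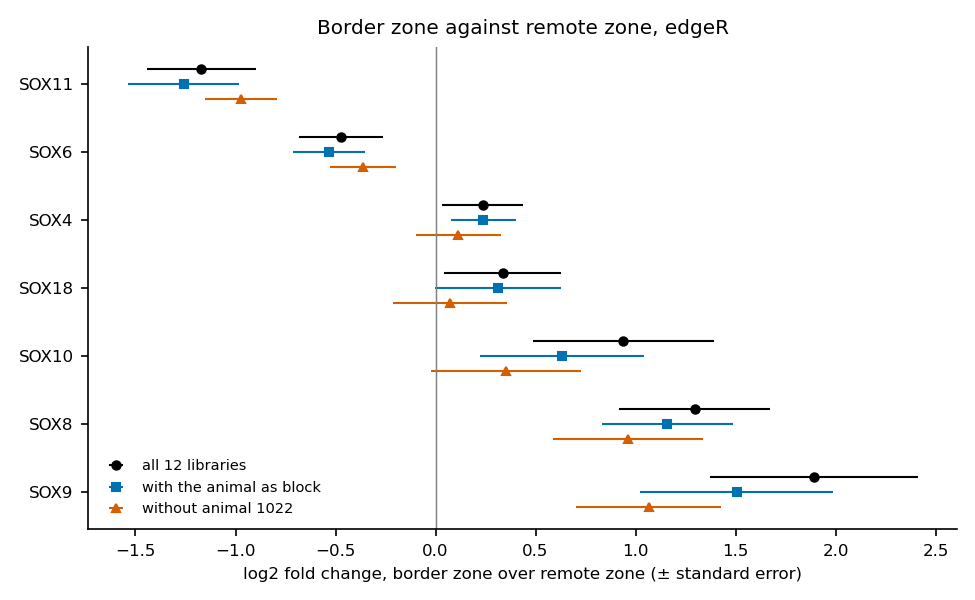
Log2 fold change of border over remote zone for the 7 tested SOX genes from edgeR (points) with its standard error (bars), for all 12 libraries, with the animal as block, and without animal 1022. SOX11 and SOX6 lie under 0 in all 3 fits, and leaving out animal 1022 moves SOX9 from 1.89 to 1.07.

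The plot of fold changes shows how far the 3 group E members depend on 1 animal. Over the 7 tested members, 5 log2 fold changes were above 0 and 2 below, with a median of 0.34, against 0.04 for all genes. That median was 0.11 without animal 1022 and 0.14 without animal 1323, and lay between 0.11 and 0.70 over the 14 alternative settings. The sign of each of these 7 differences was the same in all 14 alternative settings.

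Cartilage genes that SOX9, SOX5 and SOX6 are known to drive were mostly at or near the filter. Of 16 listed genes 15 had an identifier and 5 were tested, of which 2 passed the threshold as higher and 4 had a log2 fold change above 0, with a median of 3.98 (3.53 without animal 1022, and 2.02 with at least 10 counts in every library). As the other 10 were too low to be tested, genes that are high in the border zone were more likely to enter, and no count over the 5 is read as support. CILP, a matrix protein of cartilage that fibroblasts also make, rose in the border zone. Its border zone libraries held 102 to 587 CPM and its remote zone libraries 6.91 to 37.4 CPM, without overlap. The log2 fold change was 3.98 ± 0.52 (SE), with an adjusted p of 0.00875 in the edgeR quasi-likelihood fit (Benjamini-Hochberg), and 0.0209 with the animal as block. It was 0.0686 without animal 1623 and 0.0513 without animal 3622, where the call ended.

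COL11A1, a chain of the fibrillar collagen XI of cartilage, held 0.633 to 287 CPM in the border zone with a median of 6.23, and 0 to 1.51 CPM in the remote zone. Its zones overlapped, and the border zone was higher in 6 of 6 animals. Since it entered the fit through its border zone values, the threshold it passed is not read as a result. The log2 fold change was 7.13 ± 1.58 (SE), and 4.30 without animal 1022, and COL11A1 passed in 6 of the 13 alternative settings that gave a value, the animal as block not among them. The fibroblast and matrix list moved with both genes, and its part in their values was not tested. Of its 11 tested genes 9 passed as higher, and 1 passed with the animal as block.

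Genes of glia and the neural crest, the known setting of SOX10, were 15 of 17 with an identifier and 13 tested. None passed the threshold, 10 had a log2 fold change above 0, and the median was 0.63, or 0.22 without animal 1022 and 0.24 with at least 10 counts in every library. MITF, the melanocyte factor that SOX10 activates and that cardiomyocytes express as well, held 34.6 to 79.4 CPM in the border zone and 56.4 to 80.5 CPM in the remote zone (log2 fold change -0.20 ± 0.19, SE). PMP22, a membrane protein of peripheral myelin that is also made by fibroblasts, held 14.1 to 60.5 and 11.5 to 23.7 CPM in the same order (0.91 ± 0.32, SE). The 7 measured Schwann cell markers of 8 listed summed to 14.7 to 53.6 CPM in the border zone and 14.8 to 44.8 CPM in the remote zone, with the border zone higher in 2 of 6 animals. Relative to this sum, SOX10 differed within animals by -0.46 to 1.81 on the log2 scale, with a median of 0.30.

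SOX18 (ENSSSCG00000037865, chr17:62869868-62871758, minus strand), the group F factor of blood and lymphatic endothelium, was the highest member. Border zone libraries held 26.5 to 77.1 CPM with a median of 48.4, and remote zone libraries 24.1 to 63.1 CPM with a median of 40.9. The border zone was higher in 3 of 6 animals. It had a log2 fold change of 0.34 ± 0.29 (SE), which was 0.07 without animal 1022, 0.08 without animal 1323 and 0.54 without animal 1322. Within animals the log2 difference ran from -0.68 to 1.68.

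The endothelial genes that act with or downstream of group F factors showed no call either. All 20 were tested, 0 passed the threshold, and 16 had a log2 fold change above 0 with a median of 0.17, which was 0.0015 without animal 1022. PECAM1, an adhesion protein of endothelial junctions, held 138 to 200 CPM in the border zone and 89.8 to 192 CPM in the remote zone (log2 fold change 0.17 ± 0.20, SE). CDH5, the endothelial cadherin, held 59.2 to 107 and 52.6 to 127 CPM in the same order (0.16 ± 0.22, SE). Of 6 lymphatic genes downstream of SOX18, 0 passed and 5 were above 0, with a median of 0.37 (0.17 without animal 1022). PDPN, a membrane glycoprotein of lymphatic endothelium, differed by 0.12 ± 0.27 (SE), and CCL21, a chemokine that lymphatic endothelium releases, by 0.62 ± 0.44 (SE). RELN, named after its values were seen, held 3.16 to 10.7 CPM in the border zone and 1.39 to 2.98 CPM in the remote zone (1.13 ± 0.34, SE). Its zones did not overlap, as for 1.99% of all genes tested in this direction. The 12 endothelial markers summed to 472 to 670 CPM in the border zone and 357 to 824 CPM in the remote zone, with none at 0 in a library. Relative to this sum, SOX18 had a median log2 difference of 0.07, from -0.33 to 0.92.

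Each member was also set against the summed cardiomyocyte list of its own library, as a description of how it varied with these markers. Relative to that list, the border zone value of SOX11 minus its remote zone value was -0.61, -0.44, -0.49, -0.31, -0.64 and -0.59 on the log2 scale in the order of animals above, under 0 in 6 of 6. For the list itself the median was -0.44. SOX6 differed by a median of 0.17 relative to the list, from -0.34 to 0.92, and was above 0 in 5 of 6 animals. SOX4, SOX5, SOX8, SOX9 and SOX10 were above 0 in 6 of 6 animals and SOX18 in 5 of 6. Relative to the fibroblast and matrix list, 7 of the 8 members were under 0 in 6 of 6 animals. Their medians ran from -3.10 for SOX11 to -0.84 for SOX9. SOX5 was above 0 in 1 of 6, with a median of -0.45. The fibroblast and matrix list itself had a median of 2.27. The cardiomyocyte list fell and the fibroblast and matrix list rose in 6 of 6 animals. A gene unchanged between the zones would thus lie above 0 against the first and under 0 against the second. These counts are therefore not read as a result, and the share of all genes was not computed. Whether the cells that hold these lists also hold the SOX transcripts was not tested.

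**Figure D3:**
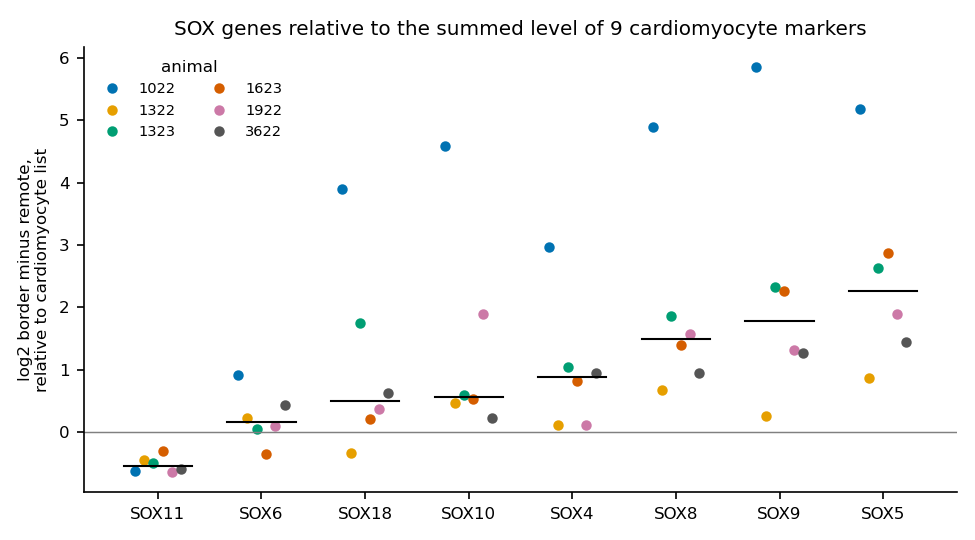
Difference of border minus remote zone on the log2 scale within each animal (points, n = 6, colours by animal), relative to the summed CPM of 9 cardiomyocyte markers, for 8 SOX genes, with the median as a line. SOX11 lies between -0.64 and -0.31, under 0 in all 6 animals, and animal 1022 lies above the others for all genes but SOX11.

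The plot relative to cardiomyocyte markers has SOX11 as the 1 member with all animals under 0. The points of animal 1022, whose marker sum was the lowest, spread the other 7 genes upwards.

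Levels were compared between genes per transcript length, as RPKM (CPM divided by the length in kilobases) from the RefSeq transcript with the longest coding sequence. SOX18 led with a mean log2 RPKM of 4.64, followed by SOX11 (2.24), SOX10 (0.73), SOX4 (0.70), SOX8 (0.54), SOX6 (-0.11), SOX9 (-0.71) and SOX5 (-4.60), over 6 animals with both zones averaged. SOX18 was above SOX11 by 2.40 ± 0.55 (SD, n = 6) and in 6 of 6 animals, and SOX9 was above SOX5 by 3.88 ± 0.28 (SD, n = 6) and in 6 of 6. SOX11 was above SOX10 by 1.52 ± 0.86 (SD, n = 6) and in 5 of 6 animals. SOX10 and SOX4 differed by 0.02 ± 0.45 (SD, n = 6), and SOX4 and SOX8 by 0.16 ± 0.38 (SD, n = 6), less than their spread in both cases. SOX8 was above SOX6 by 0.65 ± 0.70 (SD, n = 6) and SOX6 above SOX9 by 0.60 ± 0.79 (SD, n = 6), also within the spread.

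In a two-sided exact permutation test over sign changes within animals, the 7 neighbour pairs had p-values of 0.03125 to 0.84375, where 0.03125 is the smallest this design allows. Adjusted over the 7 pairs, the exact test gave 0.109 or more for every pair, so no neighbour step passed. SOX18 and SOX11 came first and SOX5 last in all 12 alternative orders, which kept 5 to 7 of the 7 neighbour pairs in the same direction.

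**Figure D4:**
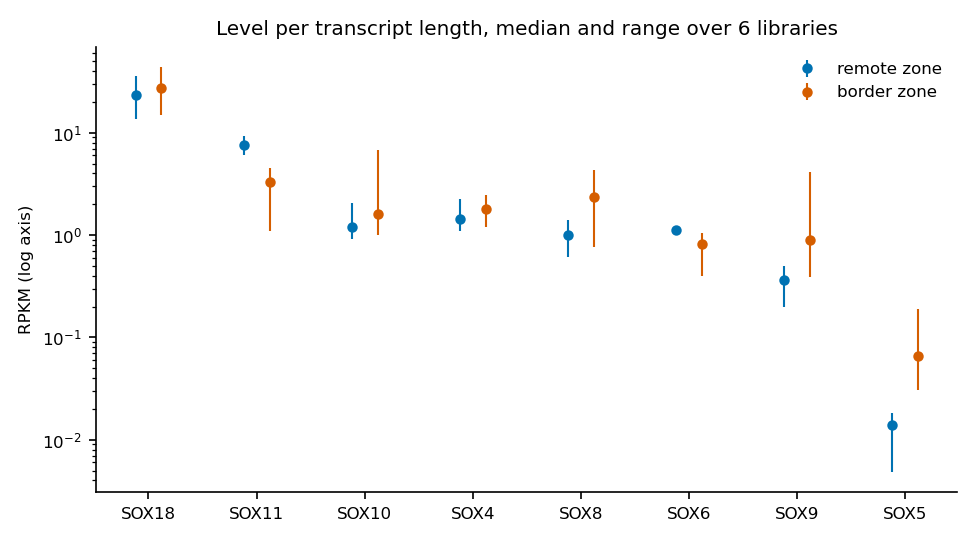
Level of 8 SOX genes per transcript length in RPKM (log axis) in the remote and border zone, as the median (point) and range (bar) of 6 libraries each. SOX18 leads with border and remote medians of 27.4 and 23.1, and SOX5 is last with 0.0661 and 0.0141.

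As the plot of levels shows, the zones also changed the middle of the order. SOX11 had a median of 7.52 RPKM in the remote zone and 3.34 RPKM in the border zone, second in both. SOX8 stood at place 6 in the remote zone with a median of 0.993 RPKM and at place 3 in the border zone with 2.35 RPKM. SOX6 stood at place 5 with 1.11 RPKM and at place 7 with 0.822 RPKM in the same order.

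Of the 9 further SOX genes listed, 6 had an identifier and 2 were tested. SOX12, the third group C factor, whose box was identical to that of SOX11 at 82.3% of bases, held 4.28 to 26.4 CPM in the border zone and 5.08 to 30.1 CPM in the remote zone (log2 fold change -0.14 ± 0.48, SE). SOX13, the third group D factor, held 5.60 to 13.9 and 4.95 to 11.8 CPM in the same order (0.28 ± 0.24, SE). SOX14 had 0 counts in all 12 libraries, which allows up to 3 counts each, or 0.0949 to 0.198 CPM. SOX3 had 2 counts and 1 count in the remote zone libraries of animals 1022 and 1922 and 0 elsewhere, and SOX21 had 2 and 5 counts in the border zone libraries of animals 1022 and 1623 and 0 elsewhere. SOX30, a factor of the testis, had 10 counts in the border zone library of animal 3622, the library with the most genes detected, and at most 1 count elsewhere.

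The genes whose pattern was most like SOX11, by Pearson correlation of log2 CPM over the 12 libraries among 11725 genes, were SLC35B1 (r = 0.98), MRPS31 (0.97), FASTK (0.97), NTMT1 (0.97) and RNASEH1 (0.97). The 12 libraries come from 6 animals and share the zone difference, so these values describe likeness and carry no p. SLC35B1 carries nucleotides across the membrane of the endoplasmic reticulum, MRPS31 is a protein of the mitochondrial ribosome, FASTK binds mitochondrial RNA, NTMT1 methylates protein N termini and RNASEH1 cuts RNA paired with DNA. After the mean of each zone was taken off, their r with SOX11 was 0.92 to 0.98. Their log2 fold changes ran from -0.78 for FASTK to -0.36 for SLC35B1. This direction was fixed by choosing genes that follow SOX11 and is a description.

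For the other members, the most alike genes were WDR13 and HHATL for SOX6 (r = 0.97 for both), FBLN2 and TRAM2 for SOX9 (0.97 for both), FRMD6 and PTPRS for SOX8 (0.94 for both), ALDH1A1 (0.93) and RASL12 (0.92) for SOX10, BOK (0.92) for SOX4, and GPR4 (0.91) and KLF2 (0.90) for SOX18. By Spearman correlation, ALDH1A1 and RASL12 had only 0.71 and 0.75 with SOX10, of which animal 1022 held 44.0% of the border zone CPM. The other genes named had 0.83 to 0.96 with their member. FBLN2 codes for an extracellular matrix protein of developing valves and cartilage, and KLF2 for an endothelial factor that responds to blood flow. These genes too were chosen over libraries that include the zone difference, so no test of their zone difference is given.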

How the data were processed

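RNA of 6 pigs was measured in 12 libraries, which the authors made by poly(A) selection without strand information, aligned to Sscrofa11.1 with STAR and counted on Ensembl genes with featureCounts. The deposited values are raw counts of reads per gene. The featureCounts options for overlapping genes and reads with several matches are not given in the sources used here. Without strand, reads of overlapping genes on opposite strands cannot be told apart.

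Symbols paired 15623 of the 35682 identifiers. The tools were edgeR 4.0.16, DESeq2 1.42.0 and limma 3.58.1 under R 4.3.3, and Python 3.11.15 (NumPy 2.4.6, pandas 2.3.3 and SciPy 1.17.1). Genes were kept by filterByExpr, scaled by TMM, and the zones compared by edgeR's robust quasi-likelihood test with zone as the only term and Benjamini-Hochberg adjustment (threshold 0.05). Standard errors (SE) were taken as the size of the log2 fold change over the root of its F statistic. CPM values are TMM-scaled, and log2 CPM used a prior count of 2. Transcript lengths came from RefSeq models of the same build, not from the Ensembl models used for counting. P-values measure the spread between these samples, and intervals and floors cover counting error only.

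By the labels, an animal number marks 2 libraries of the same pig, so the numbers pair them. Across genes, the deviations of an animal's 2 libraries from their zone means had a mean r of 0.35, from -0.03 (animal 1022) to 0.57 (animal 1323), and 4 of 6 pairs were over 0.1. No 2 libraries of the same zone had counts within sampling noise of each other. The fits were tested on simulated data.

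The members and gene lists were chosen with earlier results of these data known. Named were all SOX members, other detected SOX genes, of each list the genes past the threshold or, if none passed, the 2 highest, the 5 genes most like SOX11 and the 2 most like each other tested member, except for names not reported here. Alternatives were the animal as block, DESeq2, its size factors in edgeR, library totals, at least 10 counts in every library, no filter, each animal left out, the border zone libraries of animals 1022 and 3622 left out, another prior count, each zone alone for the order, and Spearman correlation or deviations from zone means for likeness. Coding length, the length of all exons, and the SOX5 ratio and member median under other settings were added after the data were seen.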

Additional observations from a re-analysis of the deposited data

Results flagged for a closer look

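SOX11 in the border zone library of animal 1022 had a log2 CPM of 1.80 (3.40 CPM), while the next library had 3.23, a gap of 0.703 of the range of the 6 libraries, over the critical value of 0.625. Of the 16 sets of 6 libraries looked at (8 genes in 2 zones) it was the only 1 past this value. Chance alone puts about 1 in 20 single sets past it. The 8 genes share the same 6 libraries in a zone, so the 16 sets are not independent and nothing is read from this count. The border zone library of animal 1022 had the lowest sum of cardiomyocyte markers and the highest sum of fibroblast and matrix markers. Their part in the value was not tested. Without animal 1022, SOX11 was lower in the border zone of the other 5 animals, with a log2 fold change of -0.97.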

How the results depend on the processing

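The count of genes past the threshold depended on the fit. It was 287 in edgeR, of which 285 were higher and 2 lower in the border zone. With the animal as replicate block it was 41, with DESeq2 1724 (1415 higher and 309 lower) of the 16688 genes it gave an adjusted p, under its own filter, with library totals 1551 (1545 higher and 6 lower), without a filter 139 and with at least 10 counts in every library 149. Leaving out 1 animal or border zone library gave 0 to 519 genes, and where it gave 0, without animal 1623 or 3622, 2662 and 2448 genes had an unadjusted p under 0.05. SOX members past the threshold, 1 in the main fit, were 0 with the block, 4 of 8 with DESeq2 (SOX5 among them), where 10.3% of all genes passed, 3 of 7 with library totals, where 11.2% passed, 0 with at least 10 counts and 0 to 2 when 1 was left out. Genes of the 7 pathway lists past it, 2 in the main fit, were 1 with the block, 10 with DESeq2, 8 with library totals, 1 with at least 10 counts and 0 to 4 when 1 was left out. The cause of these shifts was not tested. The block ended the calls of SOX11 and COL11A1, took the fibroblast and matrix list from 9 calls to 1, added 1 call to the adipocyte list, and changed no other call among the members and lists. Library totals moved the median of all genes from 0.04 to 0.32 on the log2 scale, and the group C target list from 0.32 to 0.69. Of the 5 genes most like SOX11, 2 were among the first 5 by Spearman correlation and 2 by deviations from the zone means. All 98 member differences moved by less than 1 SD between animals and kept their sign.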
